A study of Rattus norvegicus with 4 samples.

Results

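Runx2, Sox9, Alpl, Bglap and Tnfrsf11b are 5 genes of the bone and cartilage lineages, and they were followed through fracture callus, the repair tissue that bridges a broken bone. They were picked by Ensembl gene ID from the 20174 gene probes of a rat microarray: ENSRNOG00000020193 for Runx2, ENSRNOG00000002607 for Sox9, ENSRNOG00000013954 for Alpl, ENSRNOG00000019607 for Bglap and ENSRNOG00000008336 for Tnfrsf11b. All 5 IDs were on every array with a good quality flag, and none had a null in the authors' deposited values. The gene names came with the selection of these IDs and were not checked further, since the RefSeq table used here holds 0 of the array's Ensembl IDs. Each gene had 1 probe spot per array.

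The animals were male Sprague–Dawley rats of 12 weeks, and all had a closed femoral shaft fracture held by a wire in the marrow canal. Diabetic rats had received 40 mg/kg streptozotocin, which destroys the beta cells that secrete insulin, and had blood glucose over 300 mg/dl, while control rats had received sodium chloride and had normal glucose. The 4 groups were diabetic callus on day 11, control callus on day 11, diabetic callus on day 5 and control callus on day 5 after fracture. Callus from 5 animals was pooled in each group and hybridised to 1 Cy5 array, so the differences between single arrays have no replicate error, and array and group cannot be told apart. A chemically induced diabetes of this kind models a loss of insulin and high glucose with a sudden onset, and the pools give no value for single animals.

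A fracture of this kind heals through a soft cartilage callus that is later replaced by bone. Sox9 is the transcription factor that commits progenitors to cartilage, and Runx2 is the one that commits them to the osteoblast lineage and drives the later maturation of cartilage cells. Alpl is tissue-nonspecific alkaline phosphatase, an enzyme of early osteoblasts and maturing cartilage cells that removes an inhibitor of mineral growth. Bglap is osteocalcin, a small matrix protein secreted by mature osteoblasts. Tnfrsf11b is osteoprotegerin, a secreted decoy receptor that holds RANKL, the osteoclast-forming ligand, away from its receptor.

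The upstream sequences of Bglap, Runx2 and Alpl are shown because Runx2 protein is known, in mouse, to activate the osteocalcin promoter through the letters AACCACA, and these 3 genes stand at the start, the early and the late stage of the osteoblast lineage. Each line gives the 250 bases before an annotated start in RefSeq (build GRCr8), 5′ to 3′ on the gene's strand, with AACCACA in capitals. The windows lie at chr2:176137319-176137568 on the minus strand for Bglap, chr9:23664808-23665057 on the plus strand for Runx2 and chr5:155289786-155290035 on the minus strand for Alpl.
Bglap: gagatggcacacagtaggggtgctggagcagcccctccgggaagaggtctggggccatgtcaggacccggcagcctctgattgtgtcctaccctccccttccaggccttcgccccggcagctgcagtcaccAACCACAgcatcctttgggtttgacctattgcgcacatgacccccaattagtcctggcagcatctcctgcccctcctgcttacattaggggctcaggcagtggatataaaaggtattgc
Runx2: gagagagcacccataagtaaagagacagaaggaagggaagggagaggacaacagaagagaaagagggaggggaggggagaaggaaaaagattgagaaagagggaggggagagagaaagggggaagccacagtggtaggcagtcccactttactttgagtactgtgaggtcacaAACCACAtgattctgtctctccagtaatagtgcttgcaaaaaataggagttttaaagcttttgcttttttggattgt
Alpl: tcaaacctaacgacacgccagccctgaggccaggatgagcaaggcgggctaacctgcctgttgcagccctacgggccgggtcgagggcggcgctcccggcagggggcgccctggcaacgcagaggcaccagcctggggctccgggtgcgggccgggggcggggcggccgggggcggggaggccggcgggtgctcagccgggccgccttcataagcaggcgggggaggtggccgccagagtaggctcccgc
The search covered AACCACA and, on the other strand, TGTGGTT, and 1 match lay 119 to 113 bases before the start of Bglap and 1 lay 77 to 71 bases before that of Runx2. The Alpl window and the window of a second listed Runx2 start held no match, which says only that these letters are not there. The letters occur in 4.59% of 33469 rat promoter windows of the same length. A search for ACAATG or CATTGT, letters bound by Sox proteins, found no match in these 4 windows, against 11.1% of all windows. Matches are descriptions of the sequence, not sites of binding in callus.

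All 20 gene and array values were above the detection limit, set for each array at 2 SD over the trimmed mean of its blank spots, and all were also above the same limit computed from negative control spots. The margin was narrowest on the control array of day 11, where the spot median was 1.23 times the blank limit for Runx2 and 1.25 times for Tnfrsf11b. The arrays had 15846 to 16377 of 20161 genes above the limit. Positive Control 1, spotted 24 times per array, varied by 8.01% to 11.9% (coefficient of variation) within an array and had a mean net signal of 10689 on the diabetic and 13029 on the control array of day 11. Positive Control 2 averaged 10283 on the diabetic and 15158 on the control array of day 11, and varied more widely, by 17.0% to 28.9%. These are signals before normalisation, and the part of array brightness in the results was not tested. No other marker gene of callus, marrow, muscle or blood could be named, so a change in the makeup of the tissue was not tested.

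Bglap had the widest span of the 5 genes over the 4 arrays. Its net signal, the spot median minus the blank-spot level in scanner units, was 8197 in diabetic and 114 in control callus on day 11, and 2729.6 in diabetic and 3464 in control callus on day 5. The control array of day 11 was thus far below the other 3, which were all high. On the normalised log2 scale, used below for every difference, Bglap stood at 13.02 in diabetic and 7.30 in control callus on day 11, a difference of 5.72 or 52.85-fold. Only 4 of 16732 genes had a larger positive difference, and 4 to 11 did over the 9 settings that were tried. Settings that change only the detection limit keep each log2 difference as it is, so they could not alter its size or sign. The authors' deposited table is a scaled form of the blank-subtracted signal, so it is close to the setting with the blank level subtracted. The 9 settings are thus not independent. With bulk tissue, fewer cells that make a transcript and less transcript per cell cannot be told apart.

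**Figure D1:**
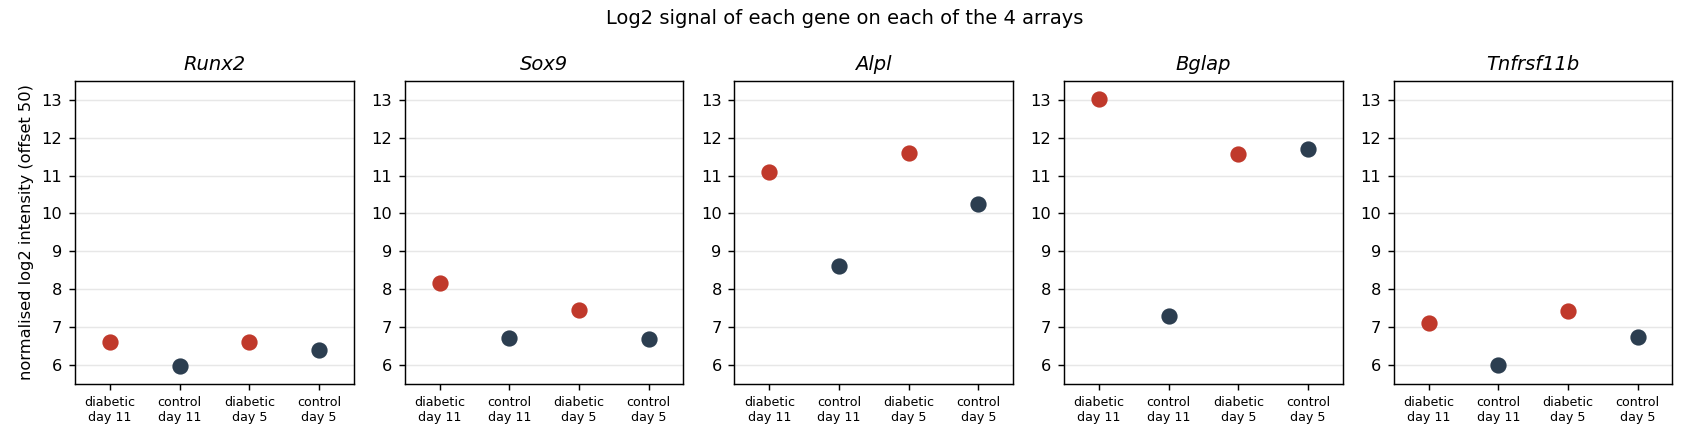
Normalised log2 intensity (intensity plus an offset of 50, vertical axis) of each gene on the diabetic (red) and control (dark blue) arrays of day 11 and day 5. Each point is 1 array of tissue pooled from 5 animals; levels cannot be compared between panels because the probes differ. Bglap lies at 13.02 in diabetic and 7.30 in control callus on day 11, and at 11.58 in diabetic and 11.70 in control callus on day 5.

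On day 5 the Bglap values of the groups were close, at 11.58 in diabetic and 11.70 in control callus, a log2 difference of -0.12. Over the 9 settings this day 5 difference ran from -0.66 with the local background to -0.04. In control callus Bglap was 21.2-fold lower on day 11 than on day 5 (log2 difference -4.41). None of the 16893 genes compared between the control arrays had a more negative difference, and this was so in all 9 settings. In diabetic callus Bglap was 2.71-fold higher on day 11 than on day 5, with a log2 difference of 1.44. In the authors' deposited table Bglap was listed at 4904 in diabetic and 58.3 in control callus on day 11, and at 1910.4 in diabetic and 1962 in control callus on day 5.

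The Alpl probe was brighter in diabetic callus on both days. Its net signal was 2180.4 in diabetic and 367 in control callus on day 11, and 2749 in diabetic and 1224 in control callus on day 5. Both diabetic arrays lay above both control arrays. The log2 difference between diabetic and control callus was 2.50 on day 11, or 5.65-fold, and 1.34 on day 5, or 2.53-fold. Only 56 of 16732 genes on day 11 and 35 of 17030 genes on day 5 had a larger positive difference; over the 9 settings these counts were 46 to 206 on day 11 and 35 to 380 on day 5. Between the days, Alpl was 3.14-fold lower on day 11 in control callus (log2 difference -1.65), while in diabetic callus it was lower by a log2 difference of -0.49, under 2-fold.

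Alpl and Bglap, an early and a late osteoblast product, did not keep step. From day 5 to day 11 the log2 difference of Bglap minus that of Alpl was 1.93 in diabetic and -2.76 in control callus. For the diabetic minus control differences, Bglap minus Alpl was 3.22 on day 11 and -1.46 on day 5. These are differences between changes, since levels of separate probes were not compared. Their signs were the same in all 9 settings.

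Sox9 was also brighter in diabetic callus on both days. Its net signal was 226 in diabetic and 56.9 in control callus on day 11, and 109 in diabetic and 55.4 in control callus on day 5. The control arrays of both days were nearly equal, and the diabetic arrays stood above them. The log2 difference was 1.46 on day 11 (2.76-fold) and 0.77 on day 5 (1.70-fold). From day 5 to day 11 Sox9 differed by 0.71 in diabetic callus (1.64-fold higher) and by 0.02 in control callus on the log2 scale, a control value that turned negative in 3 of 9 settings. With the local background in the correction the day 5 difference between diabetic and control callus was -0.15.

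Runx2 was the gene with the smallest span of the 5 on the normalised scale. Its net signal was 43.0 in diabetic and 11.5 in control callus on day 11, and 37.5 in diabetic and 35.0 in control callus on day 5. The control array of day 11 was low and the other 3 were close together. The log2 difference between diabetic and control callus was 0.63 on day 11 and 0.20 on day 5, both under 2-fold. From day 5 to day 11 the log2 difference of Runx2 was 0.0046 in diabetic and -0.42 in control callus. Runx2 lies below the offset of 50 on every array, which draws its differences towards 0. On the control array of day 11 its spot median was 1.23 times the detection limit, so ratios to that array rest on a dim spot. The authors' deposited values have no offset, and in them Runx2 was listed at 25.7 in diabetic and 5.90 in control callus on day 11, 4.36-fold apart, and at 26.25 in diabetic and 19.8 in control callus on day 5.

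The lineage factors were also set against each other. The diabetic minus control difference of Sox9 exceeded that of Runx2 by 0.83 on day 11 and 0.57 on day 5 on the log2 scale. On day 5 this order depended on the background, with values of -0.32 to 0.88 over the 9 settings. On day 11 it stayed above 0 in all 9, at 0.08 to 0.83, and the reported value was the highest of these. With the blank level subtracted and no offset, the day 11 differences were nearly equal, at 2.18 for Sox9 and 2.11 for Runx2. They were also nearly equal in the authors' deposited table, at 2.21 for Sox9 and 2.12 for Runx2.

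Tnfrsf11b, the decoy receptor, was dim on all arrays. Its net signal was 79.4 in diabetic and 12.2 in control callus on day 11, and 104 in diabetic and 59.1 in control callus on day 5. Both diabetic arrays were above both control arrays, and the control array of day 11 was the lowest. The log2 difference between diabetic and control callus was 1.10 on day 11 (2.14-fold) and 0.68 on day 5 (1.60-fold). Both differences depend on the background used. On day 11 the local background around the Tnfrsf11b spot was 110 in diabetic and 45.5 in control callus, so that the signal above it was 8.32 in diabetic and 7.50 in control callus. With that column in the correction the log2 difference was 0.0040 on day 11 and 0.11 on day 5, and over the 9 settings the day 5 difference reached 1.12. Between the days Tnfrsf11b differed by -0.32 in diabetic and -0.75 in control callus.

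Of the list, 4 of the 5 genes were at least 2-fold higher in diabetic than in control callus on day 11, namely Sox9, Alpl, Bglap and Tnfrsf11b, and 0 were lower. Over all genes tested, 2.16% were higher by 2-fold or more on day 11 and 2.1% were lower by as much. The median log2 difference of the 5 genes was 1.46, beside 0.0008 for all 16732 genes. On day 5 Alpl was the 1 gene past 2-fold, where 0.534% of 17030 genes were at least 2-fold higher, and 0 of the 5 were at least 2-fold lower, against 0.975% of all genes. The median of the 5 genes was 0.68 on day 5, beside 0.0072 for all genes. The list is small and was chosen for its subject, with earlier results of these data known. The shares and medians are therefore a description.

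**Figure D2:**
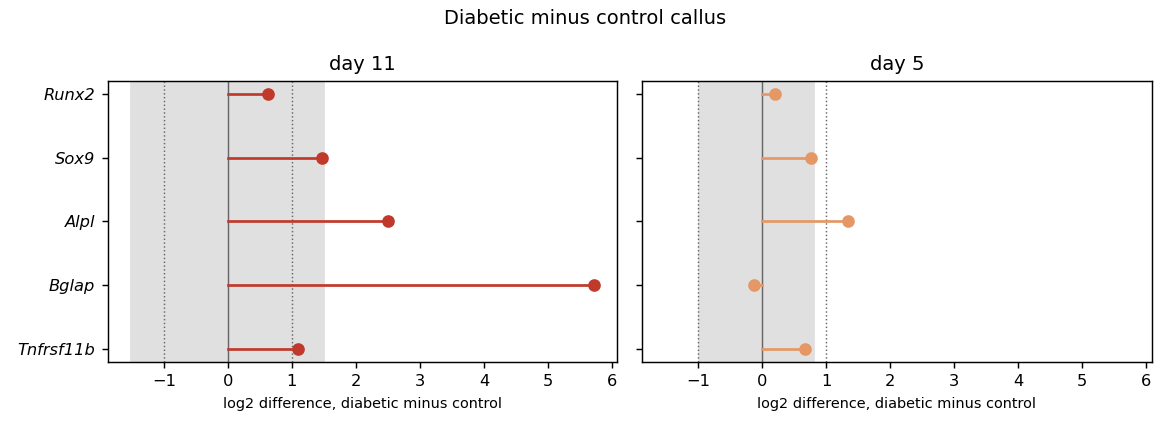
Log2 difference of diabetic minus control callus (horizontal axis) for each gene on day 11 and on day 5, from 1 array per group. The grey band spans the 1st to 99th percentile of all genes tested and the dotted lines mark 2-fold; on day 11 Alpl at 2.50 and Bglap at 5.72 lie beyond the band, and on day 5 only Alpl at 1.34 does.

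Between the days in control callus, Alpl and Bglap, 2 of the 5 genes, were at least 2-fold lower on day 11, where 0.71% of all genes were. In the same callus 0 of the 5 were at least 2-fold higher, against 0.965% of all genes. In diabetic callus 1 of the 5, Bglap, was at least 2-fold higher on day 11, where 1.04% of all genes were, and 0 were at least 2-fold lower, against 0.315% of all genes. The median of the 5 genes was -0.75 in control callus, beside -0.0056 for all genes, and 0.0046 in diabetic callus, beside -0.011 for all genes. The control array of day 11, the lowest for 4 of the 5 genes, enters the control time course and the diabetes difference alike. Before normalisation the genes above the limit on that array had a median net signal of 49.0, beside 41.7 on the diabetic array of day 11. That median was 35.7 on the diabetic and 44.1 on the control array of day 5. A median over all genes does not measure a fault of an array or pool at single probes, and such a fault was not tested.

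**Figure D3:**
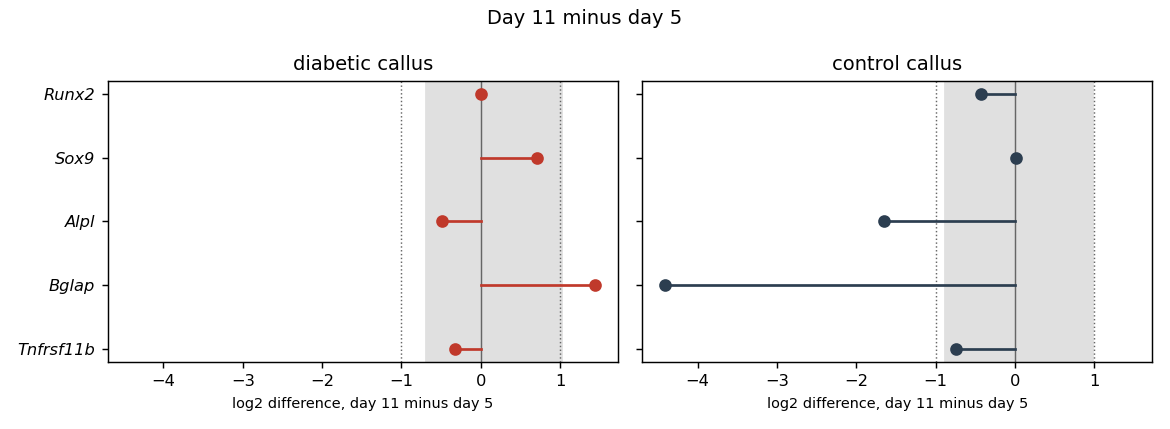
Log2 difference of day 11 minus day 5 (horizontal axis) for each gene in diabetic and in control callus, from 1 array per group. The grey band spans the 1st to 99th percentile of all genes tested and the dotted lines mark 2-fold; Bglap lies at 1.44 in diabetic and -4.41 in control callus.

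The order of the 4 arrays was compared gene by gene. Both diabetic arrays were above both control arrays for 4 of the 5 genes, all but Bglap, a pattern found in 24.4% of 17661 genes. With the local background in the correction it was 2 of the 5, Runx2 and Alpl, and with scaling to the 75th percentile the share of all genes was 52.9%. The control array of day 11 was the lowest of the 4 for 4 of the 5 genes, against 30.6% of all genes. Sox9 was the exception, with its control arrays 0.02 apart, and in the authors' deposited table it too was lowest there. The neighbouring values that could least be told apart were the diabetic arrays for Runx2, 0.0046 apart, the control arrays for Sox9 and the arrays of day 5 for Bglap, 0.12 apart. The widest of these gaps was the 0.12 of Bglap. Repeated spots of Positive Control 1, which is bright, had an SD of 0.12 to 0.17 on the log2 scale within an array. This SD was computed before quantile normalisation, unlike the gaps. For Positive Control 2 it was 0.37 to 1.22, beside a coefficient of variation of 17.0% to 28.9%, and its single spots were not examined. Repeats within an array do not measure error between arrays.

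An additive limma model over all 4 arrays was used for the mean effect of diabetes across the days and the mean effect of time across the conditions. It leaves 1 residual degree of freedom per gene, and its residual is how far the effect of diabetes differed from one day to the other. The SEs given come from eBayes, which combines that residual with a variance estimated over all genes. A gene such as Bglap, whose difference was large on day 11 and small on day 5, still has a wide error. The averaged log2 difference between diabetic and control callus was 1.92 (SE 0.38) for Alpl, 1.12 (SE 0.23) for Sox9, 0.89 (SE 0.14) for Tnfrsf11b, 0.42 (SE 0.15) for Runx2 and 2.80 (SE 1.90) for Bglap. Their Benjamini-Hochberg adjusted p in limma, over 17661 genes, were 0.287 for Alpl, 0.291 for Sox9, 0.278 for Tnfrsf11b, 0.381 for Runx2 and 0.595 for Bglap. None of the 5 passed an adjusted p of 0.05, and neither did any other gene (0% of genes). At an unadjusted p under 0.05 in limma there were 3 of the 5, namely Alpl, Sox9 and Tnfrsf11b, where 15.1% of all genes were. With the local background in the correction it was 0 of the 5, where 6.57% of all genes were. Over the settings the averaged difference ran from 0.06 to 2.03 for Tnfrsf11b, from 0.44 to 1.75 for Sox9, from 0.23 to 1.30 for Runx2, from 1.91 to 3.18 for Bglap and from 1.92 to 2.14 for Alpl.

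For the averaged day effect 0 of the 5 genes passed in limma at an adjusted p of 0.05, as 0% of all genes did, and 0 of the 5 had an unadjusted p under 0.05, where 9.13% of all genes did. The averaged log2 difference of day 11 minus day 5 was -1.07 (SE 0.38) for Alpl with an adjusted p of 0.6 in limma. It was -0.53 (SE 0.14) for Tnfrsf11b with an adjusted p of 0.545 in limma. Sox9 had 0.36, Runx2 -0.21 and Bglap -1.48, with adjusted p of 0.742 to 0.882 in limma.

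The diabetes effect of day 11 minus that of day 5 was positive for all 5 genes, except that with the local background in the correction Tnfrsf11b had -0.11. It was 5.85 for Bglap, 1.16 for Alpl, 0.69 for Sox9, 0.43 for Runx2 and 0.42 for Tnfrsf11b on the log2 scale, beside a median of -0.0064 and a 99th percentile of 1.25 over 17661 genes. Of all these genes none exceeded Bglap. That was so in 8 of the 9 settings, and with the local background 2 genes exceeded Bglap. With 1 array per group the change itself was not tested.

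Genes whose pattern over the 4 arrays was most like that of a gene of the list were sought among 14681 other genes above the limit on all arrays, by the Euclidean distance between mean-centred log2 values. The gene nearest to Sox9 was ENSRNOG00000006926 at a distance of 0.10, with diabetic minus control differences of 1.51 on day 11 and 0.87 on day 5. The gene nearest to Alpl was ENSRNOG00000016066 at a distance of 0.17, with differences of 2.51 on day 11 and 1.11 on day 5. No symbol is given for these IDs in the sources used here. Tnfrsf11b had a neighbour at 0.06, whereas the gene nearest to Bglap was 1.75 away. Runx2 spanned less than 1 on the log2 scale and was not matched. With 4 values per gene, likeness is a description.

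**Figure D4:**
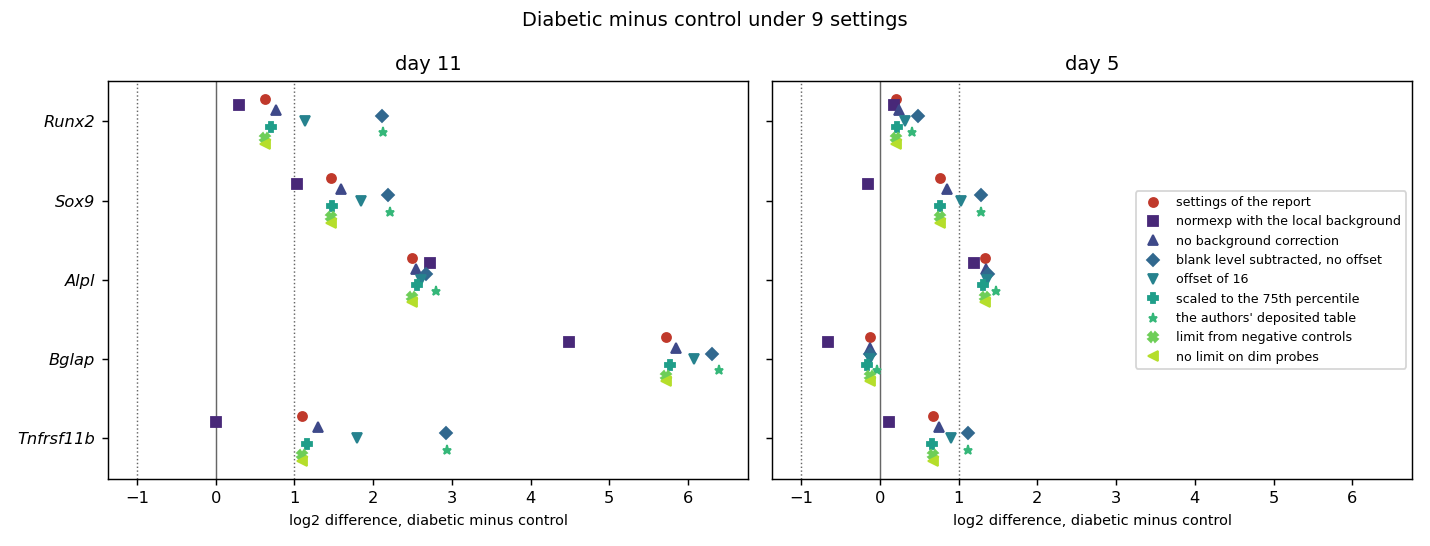
Log2 difference of diabetic minus control callus (horizontal axis) for each gene on day 11 and day 5 under 9 settings of the background, offset, scaling and detection limit; each marker is 1 setting and the dotted lines mark 2-fold. Alpl runs from 2.50 to 2.80 and Bglap from 4.48 to 6.39 on day 11, while Tnfrsf11b runs from 0.0040 to 2.93.

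The direction on day 11 was the same for all 5 genes in all 9 settings, with Tnfrsf11b barely above 0 in 1 of them. Settings that change only the detection limit could not alter the direction. Alpl and Bglap were past 2-fold on day 11 in all 9, and so was Sox9, which ranged from 1.03 to 2.21. Runx2 was past 2-fold on day 11 in 3 settings, namely with an offset of 16, with the blank level subtracted and in the authors' deposited table, and ranged from 0.29 to 2.12. On day 5 Alpl ranged from 1.20 to 1.47, and Sox9 from -0.15 with the local background to 1.28.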

How the data were processed

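Each array has a deposited text file whose values are spot intensity medians in the Cy5 channel, beside a local background intensity and flags at 3 gains, per the file headers; background was not subtracted. How gains were combined is not given in the sources used here. The authors' deposited table holds linear intensity values, which equal the spot median minus the trimmed blank-spot mean, times 1 factor per array, with dim or badly flagged spots null and a column median of 25.

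Spot medians were corrected in limma 3.58.1 (R 4.3.3; normexp, blank-spot mean as background, offset 50), 13 probes with a bad flag were left out, and 20161 genes were quantile normalized and logged. Genes above the blank limit (trimming 5% at each end) on either array entered a pairwise comparison, and at least 2-fold apart means a log2 difference of 1 or more. The additive limma fit used lmFit and eBayes, and its code was tested on simulated data. Those data had the same diabetes effect on both days and no day effect, unlike the arrays. That test therefore does not measure the error of the fit here. Arrays were grouped by their titles. Precision is limited by the 4 arrays.

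The named genes are the 5 of the selection and, as rule, the nearest gene to each one spanning 1 or more on the log2 scale, with at most 2 unnamed IDs per direction. Members, lists and tests were chosen with earlier results of these data known. Lists of other lineage genes and of cell type markers were not used, since 0 Ensembl IDs are in the table of 47357 RefSeq genes. Alternatives covered background, offset, scaling, detection limit, the authors' table and eBayes options.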

Additional observations from a re-analysis of the deposited data

Results flagged for a closer look

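The log2 difference of Bglap between diabetic and control callus was 5.72 on day 11 and -0.12 on day 5. The signs are opposite, but the day 5 value was small, and it ran from -0.66 with the local background to -0.04 in the authors' deposited table. Repeated spots within an array had a log2 SD of 0.12 to 0.17 for Positive Control 1 and 0.37 to 1.22 for Positive Control 2. These SDs were computed before quantile normalisation. The coefficient of variation of Positive Control 2 was 17.0% to 28.9%, and its single spots were not examined. Such repeats do not measure error between arrays or pools. Between the days Bglap differed in opposite directions, by 1.44 in diabetic and -4.41 in control callus. Runx2 had log2 differences of day 11 minus day 5 of 0.0046 in diabetic and -0.42 in control callus, of which the diabetic value is close to 0 and turned negative in 2 of 9 settings. With 1 array per group none of these differences between groups was tested.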

How the results depend on the processing

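The number of the 5 genes past 2-fold between diabetic and control callus was 3 to 5 on day 11 over 9 settings, against 4 as reported. On day 5 it was 1 as reported, 2 with an offset of 16, and 3 both with the blank level subtracted and in the authors' deposited table. Between the days in control callus it was 2 as reported, 3 with an offset of 16, and 4 both with the blank level subtracted and in the authors' deposited table; in diabetic callus it was 1 in all 9. The settings with higher counts carry a smaller offset or none, and they also raised the share of all genes past 2-fold, for example to 8.04% higher on day 11 in the authors' table. Scaling to the 75th percentile moved the median of all genes by 0.104 on the log2 scale for diabetic minus control callus on day 5, and the authors' table moved it by -0.136 for the days in control callus; the scaling changed no 2-fold call among the 5. No member passed an adjusted p of 0.05 in limma under any of the 10 settings of the averaged fits, where the adjusted p of members for diabetes was 0.185 to 1. Over all genes the smallest adjusted p of the diabetes effect in any limma fit was 0.0232, with the trend and robust options. The additive fit pairs diabetic and control arrays by day. The labels give no replicate numbers for another pairing, and with 1 array per group none could be left out. Signal near or below the offset limits Runx2, Tnfrsf11b and, on the control arrays, Sox9. The net signal of Sox9 in control callus was 56.9 on day 11 and 55.4 on day 5. Its diabetic minus control difference on day 11 was 1.46 as reported and 2.18 with the blank level subtracted and no offset.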

Other observations

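The local background column behaved differently around the 5 spots. On day 11 it was higher in diabetic than in control callus for all 5 genes, as was the spot median. For Bglap it was 5181 in diabetic and 57.4 in control callus on day 11, beside spot medians of 8236 and 155. Whether the local background holds signal of the spot itself was not tested. Around the Bglap spot it was 62.9% of the spot median in diabetic and 37.1% in control callus on day 11, and 37.8% in diabetic and 26.4% in control callus on day 5. Around the Alpl spot it was 75.6% in diabetic and 89.2% in control callus on day 11, and around the Tnfrsf11b spot 92.9% in diabetic and 85.8% in control callus. Above the local background the Bglap signal was 3054 in diabetic and 97.5 in control callus on day 11, and 1721 in diabetic and 2577 in control callus on day 5. The Sox9 signal above it was 90.2 in diabetic and 20.7 in control callus on day 11, and 30.7 in diabetic and 39.8 in control callus on day 5.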
